A study of Mus musculus with 9 samples.

Results

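The genes described are 35 transcripts of the ATF4 program, the set of genes by which a cell responds to a shortage of amino acids or to stress of the endoplasmic reticulum. They were chosen by name from the deposited count table: 10 stress and feedback genes, 6 enzymes of amino acid synthesis, 3 enzymes of mitochondrial folate metabolism, 4 amino acid transporters and 12 cytosolic aminoacyl-tRNA synthetases. All 35 were among the 25860 genes of the table, and all 35 passed the filter on low counts that left 13712 genes for testing. The choice used no measured value, but it was made with earlier results of these data known.

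The RNA was from Osx1-Cre cells of the calvaria (skull vault) of newborn mice. Osx1-Cre is a transgene in which regulatory sequence of osterix, a factor needed for osteoblast formation, drives Cre recombinase, and cells carrying it were collected by flow sorting. Both groups were such sorted cells, pooled from 3 to 5 pups aged 2 to 4 days, grown in alpha-MEM with 10% fetal bovine serum and harvested at 90% confluence, each pool being called 1 biological replicate. One group is labelled IRE1KO (n = 5) and the other WT (n = 4). The labels name no allele, strain or sex, nor whether the WT cells came from littermates.

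ATF4 is a transcription factor whose mRNA is translated more when eIF2alpha is phosphorylated, by PERK in the endoplasmic reticulum, GCN2 on uncharged tRNA, PKR or HRI. It pairs with C/EBP factors and induces genes that make, import and charge amino acids, together with genes that limit the response. IRE1, encoded by Ern1, is the sensor of a parallel branch of the unfolded protein response and acts through splicing of Xbp1 mRNA. Osteoblasts, which secrete large amounts of collagen, are known to need ATF4 for amino acid import and matrix synthesis. The comparison asks how this program stood in cells labelled as lacking IRE1.

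The sites to which ATF4 and C/EBP factors bind together carry the letters TGATGNAA. Matches upstream of members are shown because such sites are known from genes that ATF4 induces. Promoters were windows from 250 bases before to 50 bases after each start, from RefSeq on GRCm38.p6. They were found for 28 of the 35 members, Mars under the symbol Mars1. The letters occurred on either strand in 11 of these 28 genes (39.3%), against 1219 of 27025 genes with a promoter (4.51%), or 1304 of 32851 promoters (3.97%). A match is a description of the letters and no evidence of binding. Each line below gives 30 bases on the gene's strand with the match in capitals; TTNCATCA is the same motif read on the other strand.
Asns, chr6:7693214-7693243, minus strand: tcccagccacaTGATGAAActtcccgcacg
Nupr1, chr7:126625562-126625591, minus strand: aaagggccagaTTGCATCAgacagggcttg
Tars, chr15:11399659-11399688, minus strand: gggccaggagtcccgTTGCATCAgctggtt
Gars, chr6:55037960-55037989, plus strand: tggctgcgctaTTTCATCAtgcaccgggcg
Slc7a11, chr3:50443661-50443690, minus strand: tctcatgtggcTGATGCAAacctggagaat
Slc7a11, chr3:50443642-50443671, minus strand: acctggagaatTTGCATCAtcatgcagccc
Chac1, chr2:119351038-119351067, plus strand: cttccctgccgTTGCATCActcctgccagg
Vldlr, chr19:27216809-27216838, plus strand: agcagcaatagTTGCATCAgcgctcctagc

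The first 4 lines are of members named by the rule for per-library values, and the last 4 were added after the matches were seen. Slc7a11 holds a match in each orientation, 66 and 47 bases before its start. In Trib3, Iars and Yars the match did not lie wholly before the start and is not shown. Ddit4, the member that differed most clearly between the groups, had no match in its window. Its upstream sequence from chr10:59951871-59952020, minus strand, is shown with the letters ACGTG in capitals, since Ddit4 is also known as a hypoxia gene. These letters are a form of the core to which hypoxia-inducible factors bind. Other forms of that core were neither marked nor counted. ACGTG occurred on either strand in the same 150 bases of 9.24% of the 32851 promoters, and once in that of Ddit4.
Ddit4: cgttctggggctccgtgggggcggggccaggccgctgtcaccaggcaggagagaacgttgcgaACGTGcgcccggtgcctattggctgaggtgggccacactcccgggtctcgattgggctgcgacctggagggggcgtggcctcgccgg

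Total counts were 18784636 to 22028075 per library, and a floor of 3 counts was worth 0.137 to 0.159 CPM (counts per 1000000, with library sizes scaled by TMM). The members had 14 to 8065 counts per library, so that none was near the floor in any library. Ern1 was at 54.2, 49.1, 43.9 and 41.5 CPM in WT libraries 1 to 4 and at 55.8, 49.8, 54.7, 52.5 and 52.6 CPM in IRE1KO libraries 1 to 5. It was not lower in IRE1KO, and a total over the gene does not show whether an exon is missing, so that it does not check the genotype labels. Of the osteoblast lineage, Col1a1 was at 15462 CPM or more and Runx2 at 59.8 CPM or more in every library. Markers of mature osteoblasts and osteocytes differed in level. Bglap was at most at 0.192, Dmp1 at 1.93, Ibsp at 3.92 and Phex at 5.70 CPM, whereas Spp1 was at 688 to 1939 CPM. Ibsp, Phex and Spp1 had negative log2 fold changes (-2.06, -1.29 and -0.78) that did not pass (adjusted p = 0.152, 0.187 and 0.205, edgeR). Bglap and Dmp1 were not tested. On the first principal component (45.9% of the variance) WT library 4 stood apart at 56.7, against -23.4 to 15.1 for the others. That library had the highest summed markers of the osteoblast lineage (54043 CPM, against 27497 to 32266 CPM in the other WT libraries). Nearly all of this sum was Col1a1 and Col1a2, while Sp7 and Spp1 were higher in WT libraries 2 and 3. Col1a1, Col1a2, Runx2, Alpl, Ibsp, Dmp1 and Phex were each highest of all libraries in WT library 4. Its sums for glia and pigment cells (98.9 CPM, against 31.3 to 75.0 CPM) and endothelium (20.7 CPM, against 8.42 to 12.4 CPM) were also the highest. Most of the endothelium sum was Tek (17.5 CPM), while Cdh5, Kdr and Emcn were lowest among WT libraries in WT library 4. Its adipocyte sum (115.5 CPM) was close to that of WT library 3 (114.2 CPM). Among WT libraries its macrophage and osteoclast sum (424.5 CPM) was the highest, of which 202.6 CPM was Ctsk. Ctsk, Acp5, Ptprc and Adgre1 were higher in WT library 4 than in WT library 3, and Cd68, Csf1r, Lyz2 and Cd14 were lower. The chondrocyte (1368 CPM) and skeletal muscle (21.8 CPM) sums of WT library 4 were the lowest among WT libraries. These sums were mostly Col2a1 (1099 CPM) and Des (20.3 CPM). Sox9, Comp, Col9a1 and Col11a2 were highest of all libraries in WT library 4 (128.7, 117.8, 6.22 and 11.1 CPM), unlike Acan, Matn1 and Matn3.

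Most members were slightly higher in IRE1KO cells, but only Ddit4 passed the test over all genes. Log2 fold changes of IRE1KO over WT were positive for 31 of the 35 members, with a median of 0.10, against -0.0050 over all 13712 tested genes, of which 48.4% were positive. Ddit4 rose 1.19-fold and the other 34 did not pass an adjusted p of 0.05 (quasi-likelihood test of edgeR, p-values adjusted over all genes by Benjamini and Hochberg). The share of members called was 2.86%, against 0.634% of all tested genes (0.255% higher and 0.379% lower in IRE1KO). At an unadjusted p under 0.05 were 9 members (25.7%), all higher in IRE1KO, against 16.5% of all tested genes (7.14% higher and 9.36% lower). The groups did not overlap for 6 members (17.1%), all higher in IRE1KO, against 6.93% of all genes (3.65% higher and 3.28% lower). These shares are descriptions of a list chosen by name, and members that respond to 1 factor do not vary independently.

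**Figure D1:**
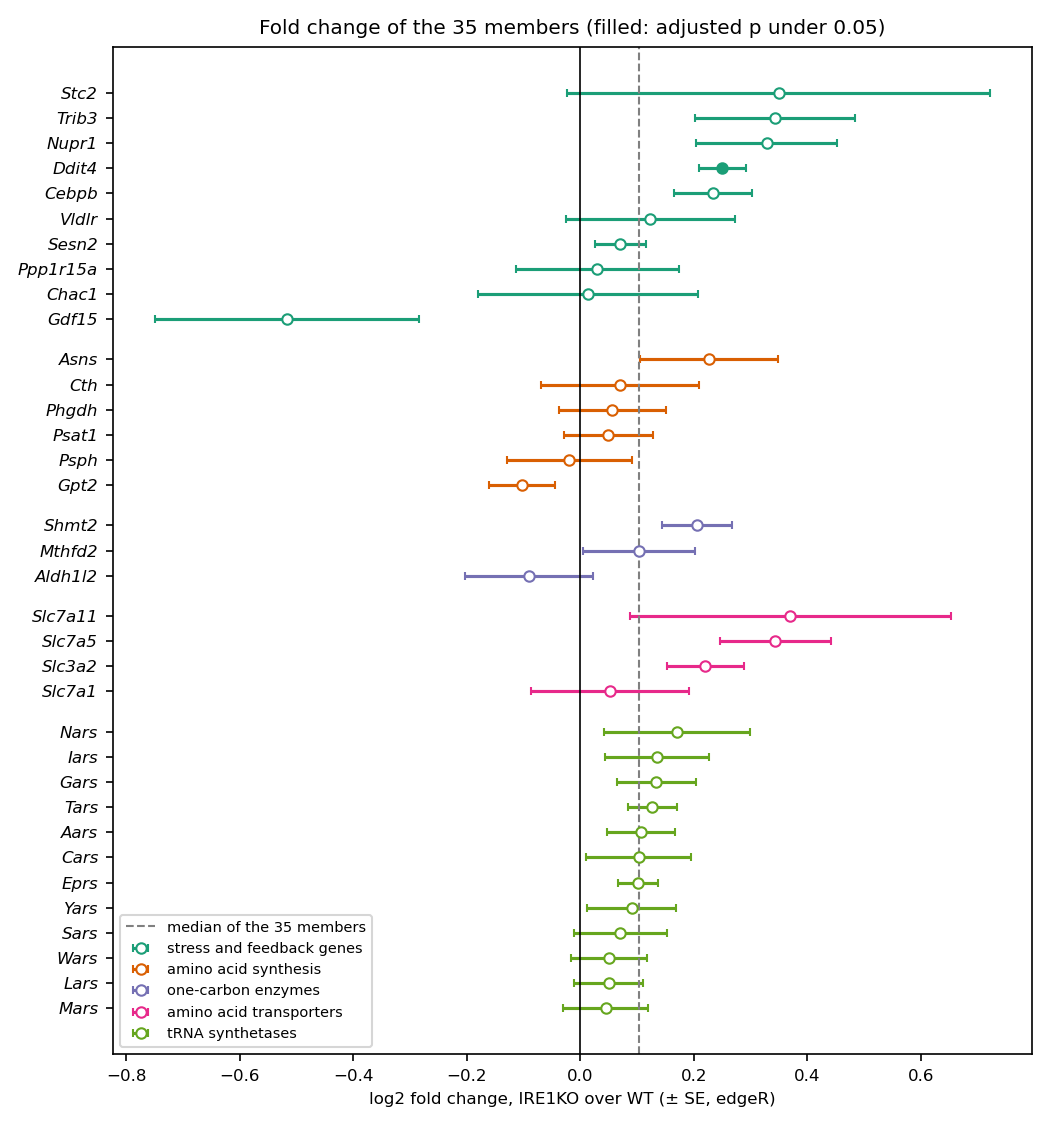
Log2 fold change of IRE1KO over WT for each of the 35 members (horizontal axis, points with SE from edgeR), grouped and coloured by role; the dashed line is the members' median of 0.10. Points lie right of 0 for 31 members, Gdf15 lies farthest to the left at -0.52, and the filled point, Ddit4, is the member with an adjusted p under 0.05.

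The size of the shift changed with the WT libraries included. Without WT library 4 the members' median log2 fold change was 0.046, with 23 of 35 positive, against -0.0024 over all genes. Without WT library 1 it was 0.16, with 32 of 35 positive. Members called over all genes were Ddit4 and Gdf15 without WT library 4, where 2.90% of all genes were called, and Slc7a5, Slc3a2, Ddit4 and Tars without WT library 1, where 8.63% were called. None was called when any of the remaining 7 libraries was left out, where 0.0146% to 0.0587% of all genes were (edgeR), and 6 to 10 members were then at an unadjusted p under 0.05, beside 11.7% to 14.9% of all genes. The count over all genes also varied with the omission: 87 were called with all libraries, 1192 without WT library 1, 399 without WT library 4, and from 2 to 8 when any other library was left out. Without WT library 1, 14 members were at an unadjusted p under 0.05, where 28.3% of all genes were.

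Among the stress and feedback genes, 1 of 10 rose and 9 did not pass. Their median log2 fold change was 0.18, and 0.069 without WT library 4, with 6 of 10 positive. Ddit4 encodes REDD1, an inhibitor of mTORC1 that is induced by ATF4, hypoxia and glucocorticoids, and lies on chromosome 10 from 59949669 to 59951834 (GRCm38, ENSMUSG00000020108). It was at 25.2, 24.8, 25.2 and 27.1 CPM in WT libraries 1 to 4 and at 30.9, 29.9, 31.0, 30.8 and 29.5 CPM in IRE1KO libraries 1 to 5. Every IRE1KO library lay above every WT library, and WT library 4 was the highest of the WT libraries, unlike in most members. The difference was 30.4 ± 0.670 CPM (SD, n = 5) against 25.6 ± 1.02 CPM (SD, n = 4), or 0.25 ± 0.041 (SE) on the log2 scale, and passed over all genes (adjusted p = 0.0470, edgeR). Its size was 0.23 to 0.28 in all 17 alternatives run, while the adjusted p passed in 4 of them and ranged from 0.00149 to 0.235; it was 0.0158 and 0.0196 without WT library 4 and WT library 1, and 0.111 to 0.146 when any other library was left out. The 5 tested genes whose log2 CPM followed Ddit4 most closely over the 9 libraries were Riok1 (Pearson r = 0.977), Gosr2 (0.970), Rps28 (0.966), Gm11940 (0.965) and Tcfl5 (0.962), given as a description over libraries that include the group difference. Of these, Gm11940 was at or below 0.80 CPM in every library.

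Cebpb encodes a C/EBP factor that pairs with ATF4 and is itself induced in the response. It was at 38.6, 46.2, 47.4 and 41.0 CPM in WT libraries 1 to 4 and at 51.1, 49.5, 48.0, 54.8 and 51.5 CPM in IRE1KO libraries 1 to 5. The groups did not overlap, the nearest pair being WT library 3 and IRE1KO library 3, and the log2 fold change of 0.23 ± 0.068 SE did not pass (adjusted p = 0.160, edgeR). Nupr1, a small chromatin-associated stress protein, was at 37.9, 35.9, 31.1 and 23.9 CPM in WT and at 37.6, 45.8, 40.8, 39.1 and 39.0 CPM in IRE1KO libraries. WT library 1 lay within the IRE1KO range and WT library 4 far below it (log2 fold change 0.33 ± 0.12 SE, adjusted p = 0.236, edgeR; 0.21 without WT library 4). Trib3, a pseudokinase that restrains ATF4 and CHOP, was low, at 3.68, 3.80, 3.18 and 3.61 CPM in WT and at 4.32, 5.43, 4.78, 3.46 and 4.65 CPM in IRE1KO libraries. IRE1KO library 4 fell among the WT libraries, and the other 4 lay above them (log2 fold change 0.34 ± 0.14 SE, adjusted p = 0.264, edgeR).

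Gdf15, a secreted stress hormone of the TGF-beta family that ATF4 and CHOP induce, was the only stress and feedback gene with a negative log2 fold change. It was at 13.3, 16.4, 13.4 and 6.06 CPM in WT libraries 1 to 4 and at 8.20, 8.09, 9.35, 8.34 and 9.01 CPM in IRE1KO libraries 1 to 5. WT libraries 1 to 3 lay above all IRE1KO libraries and WT library 4 below all of them. The log2 fold change was -0.52 ± 0.23 SE and did not pass (adjusted p = 0.307, edgeR); without WT library 4 it was -0.74 with an adjusted p of 0.00836. Over all alternatives its adjusted p ran from 0.00836 to 0.527. The other members of the group had log2 fold changes of 0.014 to 0.35: Chac1, which degrades glutathione, Ppp1r15a (GADD34), which returns eIF2alpha to its unphosphorylated form, Sesn2, a leucine sensor that inhibits mTORC1, Vldlr, a lipoprotein receptor, and Stc2, a secreted glycoprotein. Of these, Chac1 ranged from 4.34 to 9.60 CPM and Stc2 from 0.732 to 3.08 CPM within WT alone, with the lowest value of both in WT library 4. Their IRE1KO ranges, 6.95 to 8.06 and 1.70 to 3.17 CPM, lay inside those of WT for Chac1 and nearly so for Stc2.

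**Figure D2:**
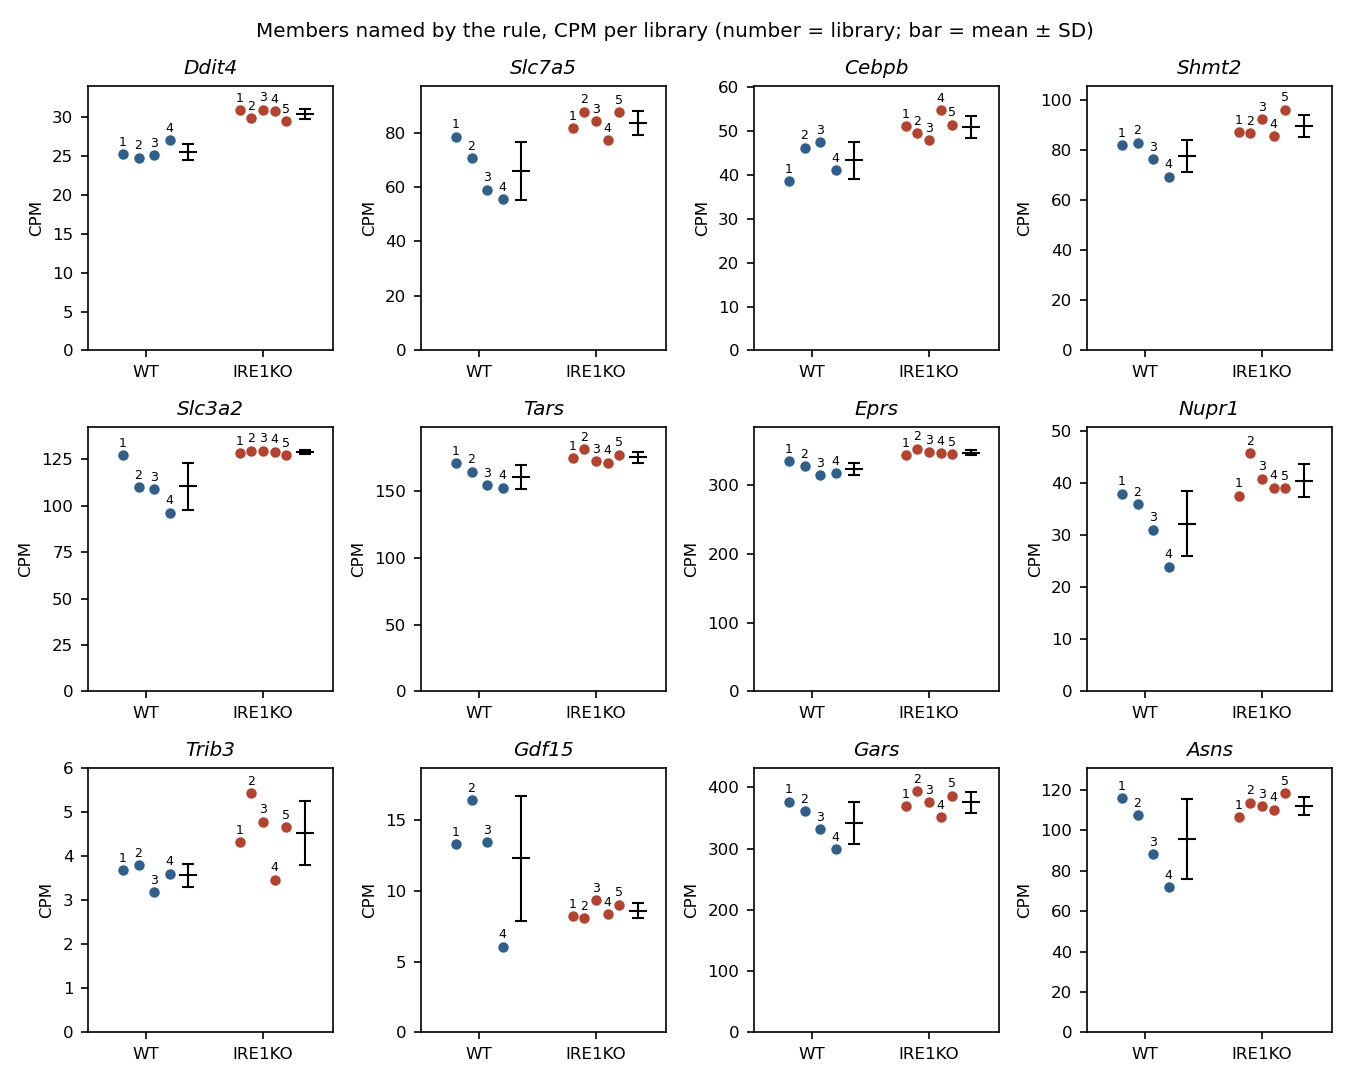
CPM (vertical axes, from 0) in each WT (blue) and IRE1KO (red) library for the 12 members named by the rule, with the library number above each point and the mean ± SD beside each group. Ddit4, Cebpb, Shmt2, Slc3a2, Tars and Eprs show no overlap between groups, whereas in Gdf15, Gars and Asns WT libraries 1 and 4 lie far apart.

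The amino acid transporters had the largest median log2 fold change of the 5 role groups, 0.28, and all 4 were positive, but none passed over all genes. Without WT library 4 their median was 0.14, with 3 of 4 positive. Slc7a5 (LAT1) exchanges leucine and other large neutral amino acids and forms a pair with the heavy chain Slc3a2 (4F2hc). Slc7a5 was at 78.6, 70.5, 59.0 and 55.6 CPM in WT libraries 1 to 4 and at 81.6, 87.7, 84.2, 77.2 and 87.4 CPM in IRE1KO libraries 1 to 5. WT library 1 overlapped IRE1KO library 4, and the other WT libraries lay below all IRE1KO libraries. The log2 fold change was 0.34 ± 0.098 SE (adjusted p = 0.155, edgeR); without WT library 1 it was 0.44 with an adjusted p of 0.0179, and without WT libraries 3 and 4 in turn it was 0.29 (0.347) and 0.27 (0.123). Slc3a2 was at 127.2, 109.8, 108.9 and 96.3 CPM in WT and at 128.2, 129.6, 129.6, 129.2 and 127.4 CPM in IRE1KO libraries. The IRE1KO libraries were nearly equal, and WT library 1 came to within 0.3 CPM of them, so that the absence of overlap rests on very little (log2 fold change 0.22 ± 0.068 SE, adjusted p = 0.178, edgeR; 0.29 and 0.0122 without WT library 1, 0.16 and 0.131 without WT library 4).

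Slc7a11 (xCT), the cystine importer that also pairs with Slc3a2, was at 13.8, 10.3, 8.84 and 3.82 CPM in WT and at 12.5, 11.3, 12.5, 11.8 and 11.2 CPM in IRE1KO libraries. Its 3.61-fold range within WT enclosed the whole IRE1KO range (log2 fold change 0.37 ± 0.28 SE, adjusted p = 0.546, edgeR). Slc7a1 (CAT1), the main importer of arginine and lysine, was likewise spread from 59.1 to 101.0 CPM in WT around 72.7 to 87.3 CPM in IRE1KO. In all 4 transporters WT library 1 was the highest and WT library 4 the lowest of the WT libraries.

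Of the mitochondrial folate enzymes, none of 3 passed, with a median log2 fold change of 0.10 (0.046 without WT library 4). Shmt2, which splits serine into glycine and a folate-bound carbon unit, was at 82.0, 82.8, 76.2 and 69.3 CPM in WT libraries 1 to 4 and at 87.1, 86.6, 92.2, 85.5 and 96.0 CPM in IRE1KO libraries 1 to 5. The groups did not overlap, and the log2 fold change of 0.21 ± 0.061 SE did not pass (adjusted p = 0.163, edgeR). Mthfd2, the next enzyme of the pathway, ranged from 32.2 to 45.0 CPM in WT and from 40.4 to 45.3 CPM in IRE1KO. Aldh1l2, which oxidizes formyl-folate in mitochondria, went the other way in WT library 4, which was its highest library at 80.5 CPM, against 52.3 to 65.5 CPM in the other 8.

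The enzymes of amino acid synthesis differed least, with a median log2 fold change of 0.053 (0.0020 without WT library 4) and none of 6 passing. Asns, the asparagine synthetase, was at 115.9, 107.5, 88.3 and 71.9 CPM in WT libraries 1 to 4 and at 106.5, 113.7, 112.1, 110.2 and 118.5 CPM in IRE1KO libraries 1 to 5. WT libraries 1 and 2 lay within the IRE1KO range and WT libraries 3 and 4 below it (log2 fold change 0.23 ± 0.12 SE, adjusted p = 0.384, edgeR; 0.11 without WT library 4). The serine pathway, Phgdh, Psat1 and Psph, had log2 fold changes of 0.057, 0.050 and -0.019. In Phgdh and Psat1 the IRE1KO libraries were spread as widely as the WT libraries: Phgdh ranged from 54.0 to 70.3 CPM in IRE1KO and from 52.7 to 67.5 CPM in WT. IRE1KO library 4 had the lowest and IRE1KO library 3 the highest value of both within its group. Cth, which makes cysteine from cystathionine, was low, at 2.40 to 3.35 CPM in all libraries. For Gpt2, the mitochondrial alanine transaminase, the log2 fold change was -0.10 ± 0.059 SE.

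The 12 cytosolic tRNA synthetases, which attach amino acids to their tRNAs, all had positive log2 fold changes, but small ones, from 0.045 for Mars to 0.17 for Nars, with a median of 0.10. None of the 12 passed over all genes. Tars, the threonine enzyme, was at 171.1, 164.9, 154.5 and 152.7 CPM in WT libraries 1 to 4 and at 174.8, 181.5, 172.6, 171.6 and 177.5 CPM in IRE1KO libraries 1 to 5. The groups did not overlap, although WT library 1 and IRE1KO library 4 were only 0.3% apart (log2 fold change 0.13 ± 0.043 SE, adjusted p = 0.205, edgeR; 0.16 and 0.0424 without WT library 1, 0.10 and 0.196 without WT library 4). Eprs, which charges both glutamate and proline, was at 334.4, 327.8, 314.4 and 317.6 CPM in WT and at 343.5, 352.9, 348.3, 346.7 and 344.8 CPM in IRE1KO libraries, again without overlap. Its log2 fold change was 0.10 ± 0.035 SE (adjusted p = 0.205, edgeR).

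Gars, the glycine enzyme, was at 376.8, 361.4, 331.6 and 298.9 CPM in WT libraries 1 to 4 and at 369.4, 393.8, 375.8, 351.4 and 386.7 CPM in IRE1KO libraries 1 to 5. WT libraries 1 and 2 lay within the IRE1KO range and the other WT libraries below it (log2 fold change 0.13 ± 0.069 SE, adjusted p = 0.366, edgeR; 0.074 without WT library 4 and 0.18 without WT library 1). Nars, the asparagine enzyme, showed the same order more strongly, at 311.2, 265.7, 222.6 and 183.8 CPM in WT around 266.9 to 282.8 CPM in IRE1KO. Aars, Cars, Iars, Lars, Mars, Sars, Wars and Yars, which charge alanine, cysteine, isoleucine, leucine, methionine, serine, tryptophan and tyrosine, overlapped between groups as well. Without WT library 4 the median of the 12 was 0.026, with 8 positive.

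Per length of annotated exon, which allows levels of different genes to be compared, Gars led at 109.7 CPM per kb in WT and 120.4 CPM per kb in IRE1KO, followed by Nars (56.4 and 63.5 CPM per kb) and Iars (48.1 and 52.8 CPM per kb). Sars and Asns came next in WT, while other synthetases lay lower, Eprs, Cars and Yars below Slc3a2, Cebpb and Shmt2. Stc2, Slc7a11 and Cth were the lowest, at 0.373, 0.659 and 0.974 CPM per kb in WT. Since exon lengths are the union over all annotated transcripts, the level of a gene with a long annotated but unused exon is understated.

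The libraries also differed among themselves in this program, more within WT than within IRE1KO. WT library 4 was the lowest of all 9 libraries in 26 of the 35 members (74.3%), against 30.5% of all tested genes, and in 11 of the 12 synthetases, Eprs being lowest in WT library 3. The median member stood at 0.85 times the WT mean in WT library 4, at 0.98 times in WT library 3, at 1.08 times in WT library 2 and at 1.10 times in WT library 1. The IRE1KO libraries lay at 1.03 to 1.11 times the WT mean, a range that includes WT libraries 1 and 2. Over all tested genes the median was 0.997 to 1.01 times the WT mean in every library. WT library 4 lay below all IRE1KO libraries in 30 of 35 members (37.0% of all genes) and WT library 3 in 24 (29.9%), whereas WT libraries 1 and 2 did so in 9 and 10 (27.9% and 27.6%). WT library 1 lay above all IRE1KO libraries in 12 members (34.3%, against 27.4% of all genes), 6 of them synthetases.

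**Figure D3:**
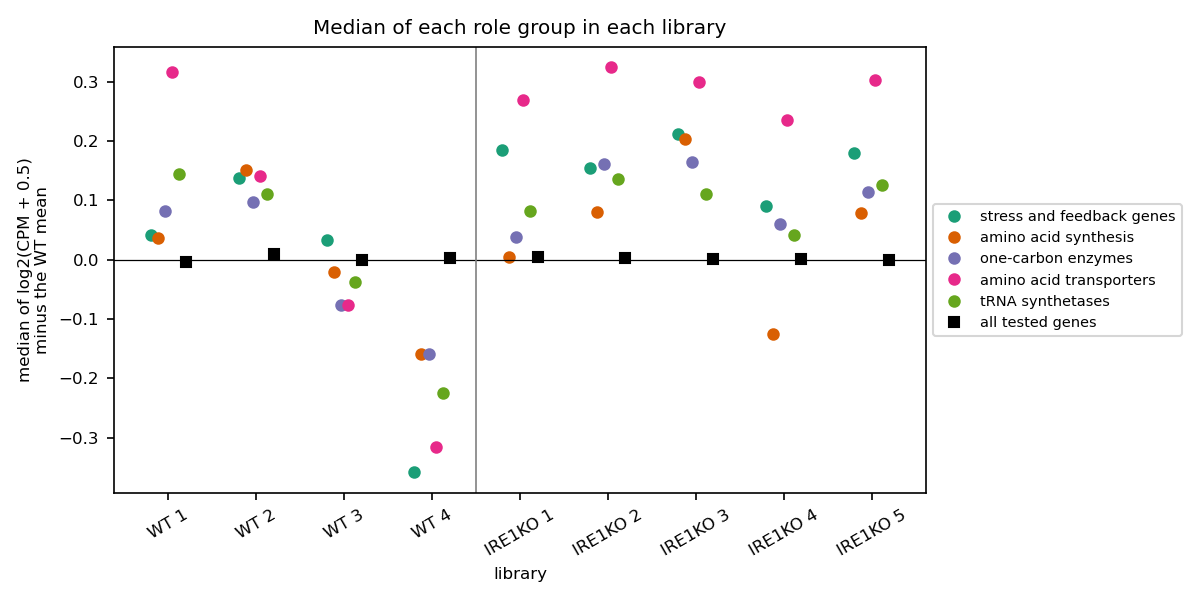
Median over the members of each role group (coloured points) and over all tested genes (black squares) of log2(CPM + 0.5) relative to the WT mean, by library. WT library 4 is the lowest library for every role group, and all tested genes stay near 0.

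The spread was wider in WT than in IRE1KO for 29 of 35 members (82.9%), a share near that of all tested genes (79.1%). The highest library was 1.32 times the lowest within WT for the median member and 1.12 times within IRE1KO. For the synthetases these ratios were 1.28 and 1.07. The enzymes of amino acid synthesis were the exception, with a wider spread in WT for 2 of 6. The part of cell composition in these differences was not tested. Beside the marker sums of WT library 4 given above, the adipocyte markers summed to 70.5 to 115.5 CPM in WT and 43.5 to 53.5 CPM in IRE1KO libraries, with 3 of 4 tested markers passing as lower and Cidec and Cfd at 0 counts throughout, and the glial and pigment cell markers to 31.3 to 98.9 CPM in WT and 23.2 to 29.8 CPM in IRE1KO, with 1 of 7 tested passing as lower and Dct at 0 counts. Both sums were lowest among WT libraries in WT library 1. Of the endothelium markers 1 of 4 tested passed as lower, Pecam1 (log2 fold change -1.99, adjusted p = 0.0497, edgeR), which was at most at 0.924 CPM in any library. None passed in the osteoblast lineage, chondrocyte, macrophage and osteoclast or skeletal muscle lists. In bulk RNA, fewer cells of a type and less RNA per cell cannot be told apart.

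**Figure D4:**
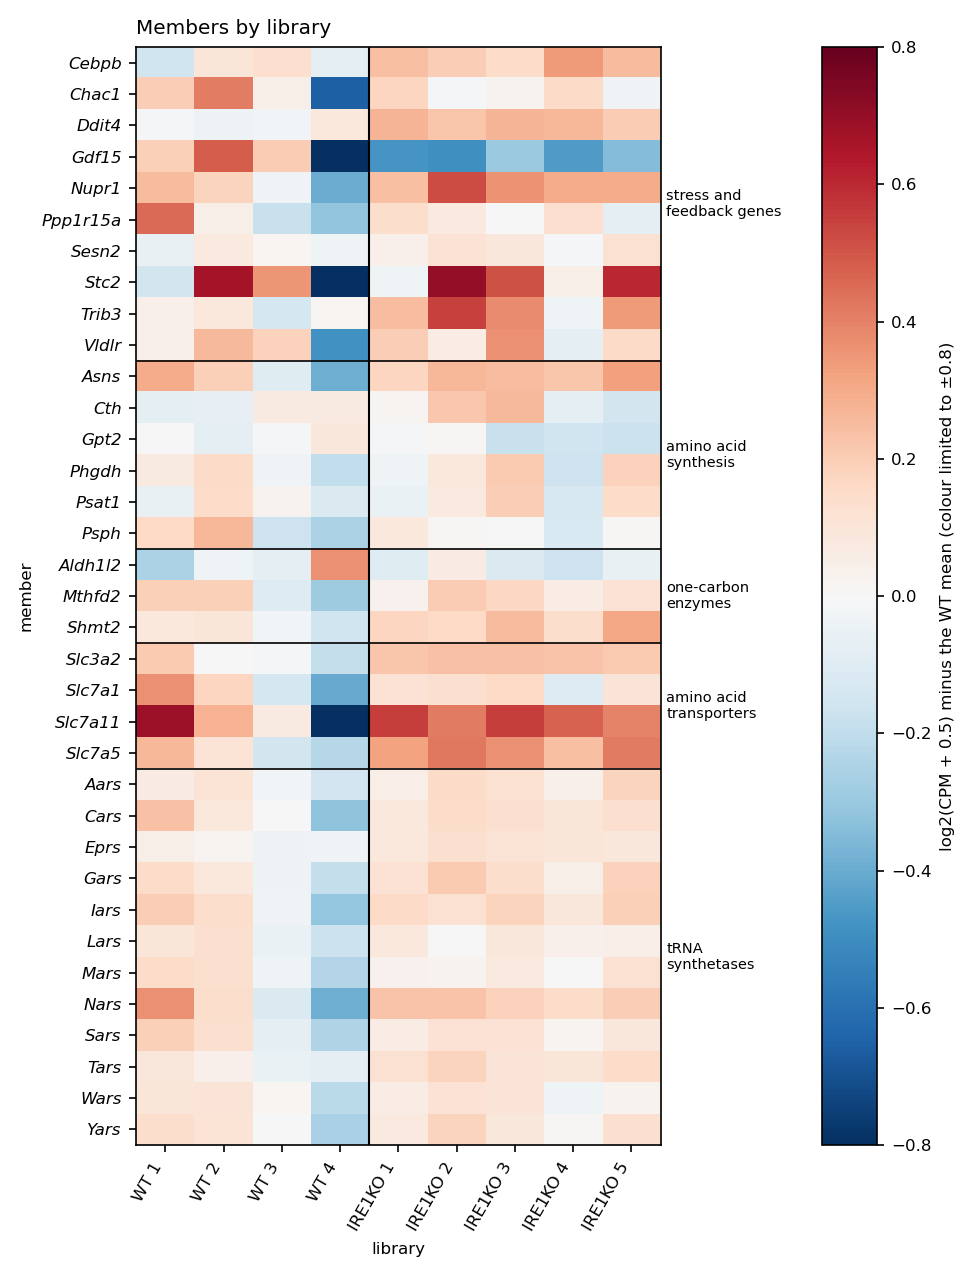
Log2(CPM + 0.5) of each member (rows, by role) relative to its WT mean in each library (columns); red is above and blue below the WT mean, with colours limited to ±0.8. The WT library 4 column is blue in most rows, with Aldh1l2 the clearest exception, and the IRE1KO columns are red in most transporter and synthetase rows, mixed among the synthesis enzymes and blue throughout the Gdf15 row.

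The factors above the program did not pass the test. Atf4 mRNA was at 114.6, 104.1, 97.4 and 94.0 CPM in WT libraries 1 to 4 and at 104.0, 107.9, 106.8, 112.7 and 107.1 CPM in IRE1KO libraries 1 to 5. WT library 1 was its highest and WT library 4 its lowest library (log2 fold change 0.071 ± 0.058 SE, adjusted p = 0.572, edgeR; 0.031 without WT library 4 and 0.13 without WT library 1). ATF4 is controlled mainly by translation, so that its mRNA is no measure of its activity. Ddit3 (CHOP) was at 18.7, 18.9, 16.0 and 12.9 CPM in WT and at 17.7, 19.0, 17.7, 15.6 and 17.9 CPM in IRE1KO libraries. It too was lowest in WT library 4 (log2 fold change 0.081 ± 0.11 SE, adjusted p = 0.755, edgeR; -0.024 without that library). None of 13 tested genes of the list of eIF2 kinases, ATF4 and its partners reached an unadjusted p of 0.05; those with the smallest p were Cebpa, whose log2 fold change was -0.52, and Eif2s1, which encodes eIF2alpha, with 0.14.

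Besides the members, 8 lists of context genes were read, among them the eIF2 kinases above, mTORC1 genes and targets of NRF2 and glucocorticoids. Not all of these belong to the ATF4 program. Of their 110 tested genes none passed over all genes in edgeR. At an unadjusted p under 0.05 were 15 (13.6%), 9 higher and 6 lower, against 16.5% of all tested genes. In the 13 other cytosolic synthetases and complex scaffolds 12 log2 fold changes were positive, with a median of 0.094 close to that of the 12 members. Kars, the lysine enzyme, at 195.7 ± 5.14 against 178.9 ± 2.92 CPM (IRE1KO against WT, SD, n = 5 and 4), and Xpot, which exports tRNAs from the nucleus, at 163.7 ± 2.85 against 150.5 ± 7.97 CPM, had the smallest p in that list. In the 17 mitochondrial synthetases, which are encoded by separate nuclear genes, 8 log2 fold changes were positive and 9 negative, with a median of -0.0085; Wars2 and Vars2 had -0.16 and -0.18. The difference between cytosolic and mitochondrial enzymes was not tested.

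Among 14 other amino acid transporters Slc7a6 (y+LAT2), a further partner of Slc3a2, had the smallest p. It was at 71.2, 65.1, 61.6 and 60.2 CPM in WT libraries 1 to 4 and at 79.6, 81.1, 79.5, 73.5 and 77.4 CPM in IRE1KO libraries 1 to 5, without overlap (log2 fold change 0.28 ± 0.055 SE, adjusted p = 0.0630, edgeR). Slc7a2, an arginine transporter, had -0.62 and was at 121.5 CPM in WT library 4, against 35.6 to 56.5 CPM elsewhere. Of these 14 transporters 9 had positive log2 fold changes, with a median of 0.015. Of 20 other amino acid and folate enzymes, Got1, the cytosolic aspartate transaminase, was at 64.4 ± 2.35 against 49.0 ± 11.7 CPM (IRE1KO against WT, SD, n = 5 and 4), and Bcat1, which transaminates branched-chain amino acids, at 107.7 ± 5.69 against 95.5 ± 9.32 CPM. Of these 20, 13 log2 fold changes were positive, with a median of 0.077.

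In the list of mTORC1 and its amino acid sensors, with 15 tested members, 10 log2 fold changes were negative. Deptor, an inhibitor of mTOR like the Ddit4 product, was at 20.9, 35.2, 28.0 and 23.4 CPM in WT libraries 1 to 4 and at 12.8, 16.7, 18.5, 13.5 and 17.7 CPM in IRE1KO libraries 1 to 5. It was lower in every IRE1KO library than in any WT library, the opposite direction to Ddit4, and did not pass (log2 fold change -0.76 ± 0.17 SE, adjusted p = 0.0774, edgeR). Castor2, listed as Gatsl2 and a relative of the arginine sensor, had -0.095. Of 10 targets of NRF2, the oxidative stress factor that also induces Slc7a11, Osgin1 was at 14.9 ± 0.927 and 12.3 ± 0.425 CPM and Slc48a1, a heme transporter, at 204.2 ± 11.1 and 162.4 ± 34.2 CPM in IRE1KO and WT. Of these 10, 8 log2 fold changes were positive, with a median of 0.16, against 0.10 for the members. Of 9 tested glucocorticoid targets, a class to which Ddit4 also belongs, Errfi1 had a log2 fold change of -0.19 and Fkbp5 of 0.13. Of these 9, 5 log2 fold changes were positive, with a median of 0.031.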

How the data were processed

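Polyadenylated RNA of 9 libraries (5 IRE1KO, 4 WT) was made into strand-marked libraries and sequenced in 1 batch, per the labels' protocols. The authors deposited 1 table of unnormalized counts, with 1 column per library. STAR, limma and mm10 are named per the submitters' processing notes; for the counting program, annotation release and strand setting the sources used here give nothing, and overlapping or antisense genes could share reads.

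Genes were kept by filterByExpr (13712 of 25860), scaled by TMM and compared with edgeR 4.0.16 (quasi-likelihood test, robust, genotype as the sole term) in R 4.3.3, with Benjamini-Hochberg adjustment over all genes and a threshold of 0.05. SEs are the log2 fold change divided by the root of F. Non-overlap means that every library of 1 group lay above every library of the other. DESeq2 1.42.0, limma 3.58.1 (voom), other scalings and filters, a replicate block and omissions of each library were alternatives. The steps were tested on simulated counts. Positions and exon lengths are from GENCODE M21 (GRCm38, the assembly of mm10), promoters from RefSeq (GRCm38.p6).

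The members, lists and tests were chosen with earlier results of these data known. Named were members with an adjusted p under 0.05, members without overlap, the 12 with the smallest p, the member of each role group with the smallest p, Atf4 and Ddit3, and the 2 context genes per list with the smallest p. Other genes were chosen after their values were seen. Context genes were matched by symbol or Ensembl identifier. The library numbers shared by both groups were not used to pair the samples in the main test. Whether they mark pairs is not known. The sequence of 1 promoter match is not reported here.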

Additional observations from a re-analysis of the deposited data

Results flagged for a closer look

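Over 70 groups of values screened (35 members in 2 genotypes), 1 had a library far from the rest of its group. The screen's nominal rate is 1 in 20, but members vary together, so the count cannot be read against that rate. Slc7a1, the arginine importer, was at 72.7 CPM in IRE1KO library 4, against 84.1 to 87.3 CPM in the other IRE1KO libraries, a gap of 0.780 of the group's whole range.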

How the results depend on the processing

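Of 17 alternatives, all kept the members' median log2 fold change positive (0.046 to 0.16), and all but the omission of WT library 1 kept the counts of members at an unadjusted p under 0.05 and of members without overlap within 1.5 times. Over the omissions of 1 library these counts were 6 to 14 (11.7% to 28.3% of all genes) and 6 to 10 (8.02% to 20.7% of all genes), the highest of each without WT library 1; members called were 0 to 4 and genes called 2 to 1192. Genes and members called were 87 and 1 with DESeq2 size factors, 46 and 0 with upper-quartile scaling, 45 and 0 without a filter, 17 and 0 above a mean of 5 CPM (32 members), 568 and 3 with DESeq2 (Slc7a5, Ddit4, Eprs), 16 and 0 with limma voom, and 10 and 0 with IRE1KO libraries 3 and 5 summed. With the replicate block they were 0 and 0 in edgeR, with 1596 genes and 7 members at an unadjusted p under 0.05; same-numbered libraries deviated with correlations of 0.15, -0.20, -0.19 and 0.47, and not every library correlated best with its own number. Ddit3 reversed to -0.024 without WT library 4, by the loss of its lowest library. The causes of the other changes were not tested. The labels call each pool a biological replicate; litter, sort day and culture day are not in them and cannot be told apart from genotype.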
